A study of Mus musculus with 9 samples.

Results

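The genes described here were Ccr3, Il5ra, Epx, Prg2, Alox15 and Il5, which are associated with eosinophils. They were chosen by their link to eosinophils and with the genotype log2 fold changes of these 9 tumors, that of Ccr3 among them, already known. They were found by symbol as 6 of the 41128 genes in the count table, and 4 of them (Ccr3, Il5ra, Prg2 and Alox15) were among the 14057 genes that passed a filter on low counts. Bulk RNA-seq had been made from 9 lymphomas of mice. The Bcl6 tumors (n = 3) were of the genotype Smc3 wt/wt; Cγ1 wt/cre; IµBcl6, and the Smc3/Bcl6 tumors (n = 6) of Smc3 wt/–; Cγ1 wt/cre; IµBcl6. All 9 tumors thus carried both IµBcl6, a Bcl6 gene placed in the immunoglobulin heavy chain locus that keeps the repressor BCL6 on in B cells, and Cγ1-Cre, a recombinase switched on as B cells join the germinal center reaction. The Smc3/Bcl6 tumors had in addition 1 Smc3 allele that this Cre deletes, so the other cell types of the tumor were not targeted. The study asked how loss of 1 copy of Smc3, a subunit of the cohesin ring that holds chromatin loops, changes transcription in these lymphomas. The tissue was labelled mesenteric lymph node for replicate 1 of each genotype and lymph node for the other 7 tumors. The study itself describes the lymphomas as mesenteric without this distinction, so the labels may not mark different tissues, and values by tissue label are read only as values by label. Neither animal age nor a sort of the cells before RNA extraction is given in the sources used here.

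Eosinophils are granulocytes made in the bone marrow and carried to tissues in the blood. Interleukin 5, encoded by Il5 and made by type 2 helper T cells and group 2 innate lymphoid cells, drives their growth and survival through a receptor whose specific subunit is encoded by Il5ra. CCR3 is the receptor for the eotaxins, the chemokines that draw eosinophils into tissue. Epx and Prg2 encode eosinophil peroxidase and major basic protein, which are packed into the granules while the cell matures in the marrow. Alox15 encodes an arachidonate lipoxygenase that in mice is also a gene of resident peritoneal macrophages. Il5ra is expressed by B-1 cells and by some plasma cells as well, so it does not mark eosinophils by itself in a B-cell tumor.

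GATA1 is a transcription factor that eosinophil and red cell precursors need, and it binds the core letters GATA. Promoter sequence from RefSeq (GRCm38.p6; 250 bases before to 50 bases after the gene start, 5′ to 3′ on the strand of the gene) was held for 4 of the 6 genes, Ccr3, Il5ra, Epx and Il5. It is shown for the receptor genes and for Epx because Gata1 varied with Ccr3 among the tumors, as given further on. The letters AGATAA and TGATAA were searched on both strands, and matches are in capitals. The regions are chr9:124021721-124022020 (plus strand) for Ccr3, chr6:106748988-106749287 (minus strand) for Il5ra and chr11:87875487-87875786 (minus strand) for Epx.
Ccr3: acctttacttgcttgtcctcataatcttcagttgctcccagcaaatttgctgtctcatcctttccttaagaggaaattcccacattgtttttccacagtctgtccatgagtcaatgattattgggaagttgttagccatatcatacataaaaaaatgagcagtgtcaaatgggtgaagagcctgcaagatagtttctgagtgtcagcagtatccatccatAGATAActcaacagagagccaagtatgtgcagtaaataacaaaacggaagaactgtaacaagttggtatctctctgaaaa
Il5ra: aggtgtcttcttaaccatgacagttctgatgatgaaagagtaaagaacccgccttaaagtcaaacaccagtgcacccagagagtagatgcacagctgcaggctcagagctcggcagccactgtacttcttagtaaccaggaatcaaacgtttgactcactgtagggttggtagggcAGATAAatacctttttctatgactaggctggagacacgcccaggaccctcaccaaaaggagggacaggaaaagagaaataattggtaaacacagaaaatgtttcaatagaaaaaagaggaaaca
Epx: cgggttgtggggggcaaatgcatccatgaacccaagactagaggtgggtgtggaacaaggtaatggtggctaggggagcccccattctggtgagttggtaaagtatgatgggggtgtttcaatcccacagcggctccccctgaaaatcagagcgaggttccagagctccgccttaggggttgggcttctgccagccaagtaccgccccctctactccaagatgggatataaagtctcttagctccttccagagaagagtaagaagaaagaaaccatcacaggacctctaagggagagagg
The Ccr3 promoter held 1 match, which began 30 bases before the gene start, and the Il5ra promoter held 1 match that began 74 bases before it. Epx and Il5 had 0 matches in this window. Of all 32851 promoters of the same length, 6115 (18.6%) held a match, so these letters are common and do not mark a bound site.

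Depth was similar in the groups, with total counts of 10156728 to 16898438 in the Bcl6 tumors and 11618983 to 17774577 in the Smc3/Bcl6 tumors. Levels are given as CPM, the counts per 1000000 counts of the library, scaled with TMM factors, which estimate how the bulk of the genes differ between libraries, and a count of 3 corresponded to 0.156 to 0.317 CPM. The TMM factor was 0.693 in Smc3/Bcl6 tumor 2 and 0.964 to 1.10 in the others. Smc3 stood at 88.1 to 126 CPM in the Bcl6 tumors, at 27.9 CPM in Smc3/Bcl6 tumor 2 and at 89.7 to 111 CPM in the other 5 Smc3/Bcl6 tumors, but counts over the whole gene also hold transcripts of cells that kept both alleles. By RT-qPCR, a different measure, the study reports reduced Smc3 mRNA in Smc3/Bcl6 tumors. In bulk tissue, fewer cells of a type and less RNA per cell cannot be told apart.

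Ccr3 (ENSMUSG00000035448.8, chr9:124021972-124031689, plus strand, mm10) was the most variable of the 4 genes. The 3 Bcl6 tumors had 8.64, 2.0 and 60.2 CPM (98, 37 and 637 counts, mean 23.6 ± 31.9 SD). The 6 Smc3/Bcl6 tumors had a lowest value of 0.0694, a median of 4.51 and a highest value of 145 CPM (1 to 2178 counts, mean 35.7 ± 58.3 SD). Smc3/Bcl6 tumor 4 was highest, Bcl6 tumor 3 and Smc3/Bcl6 tumor 6 followed, and Smc3/Bcl6 tumors 1 and 5 were lowest, so the range of the Bcl6 tumors lay inside that of the Smc3/Bcl6 tumors. The order from the top was 145 in Smc3/Bcl6 tumor 4, 60.2 in Bcl6 tumor 3, 59.6 in Smc3/Bcl6 tumor 6, 8.64 in Bcl6 tumor 1, 7.51 in Smc3/Bcl6 tumor 2, 2.0 in Bcl6 tumor 2, 1.51 in Smc3/Bcl6 tumor 3, 0.316 in Smc3/Bcl6 tumor 5 and 0.0694 CPM in Smc3/Bcl6 tumor 1. Between several neighbours in this order the counting intervals overlapped. The exact 95% Poisson intervals, which cover counting error only, were 55.5 to 65.0 CPM in Bcl6 tumor 3 and 55.6 to 63.4 CPM in Smc3/Bcl6 tumor 6. They also overlapped between Bcl6 tumor 1 (7.01 to 10.5 CPM) and Smc3/Bcl6 tumor 2 (5.86 to 9.46 CPM). Bcl6 tumor 2 (1.4 to 2.75 CPM) and Smc3/Bcl6 tumor 3 (1.01 to 2.17 CPM) overlapped as well, and so did Smc3/Bcl6 tumors 5 (0.0859 to 0.807 CPM) and 1 (0.00175 to 0.386 CPM). The SD of Ccr3 over the 9 tumors was 3.28 on the log2 CPM scale, above that of 99.8% of the genes tested, whose median SD was 0.63.

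Il5ra (ENSMUSG00000005364.9, chr6:106710357-106749037, minus strand), the receptor of interleukin 5, had another order of tumors. The Bcl6 tumors had 24.1, 16 and 15.5 CPM (273, 297 and 164 counts, mean 18.5 ± 4.81 SD). The Smc3/Bcl6 tumors had a lowest value of 0, a median of 19.3 and a highest value of 64.0 CPM (0 to 960 counts, mean 26.2 ± 26.9 SD). Smc3/Bcl6 tumors 6 and 4 (64.0 and 53.6 CPM) were above all Bcl6 tumors, Smc3/Bcl6 tumor 5 (1.26 CPM) was below them, and no read was counted in Smc3/Bcl6 tumor 2, where the upper exact 95% Poisson limit was 0.39 CPM. In that same tumor Ccr3 had 71 counts. The reverse was seen in Smc3/Bcl6 tumor 1, with 344 counts of Il5ra and 1 count of Ccr3. The ratio of Ccr3 to Il5ra counts ran from 0.00291 there to 3.88 in Bcl6 tumor 3, so both receptors were far from a constant proportion. Smc3/Bcl6 tumor 2 was also the library least like the others, and further genes were far out of range in it. Rad50 was at 10.3 CPM there against at least 52.1 CPM elsewhere, and Ccl8 at 1338 CPM against at most 306 CPM. Whether this bears on its Il5ra count of 0 was not tested.

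Among the granule genes, Prg2 (ENSMUSG00000027073.5, chr2:84980461-84983632, plus strand) was counted in every tumor. Its levels were 2.65, 2.92 and 18.8 CPM in the Bcl6 tumors (mean 8.12 ± 9.25 SD). In the Smc3/Bcl6 tumors the lowest was 1.80, the median 5.59 and the highest 23.7 CPM (mean 7.80 ± 8.29 SD). Smc3/Bcl6 tumor 4 and Bcl6 tumor 3 were highest, as for Ccr3, and the groups overlapped. Epx (ENSMUSG00000052234.2, chr11:87864000-87875536, minus strand) stood apart from this. It had 0.441, 0 and 6.33 CPM in the Bcl6 tumors (5, 0 and 67 counts), whereas the Smc3/Bcl6 tumors lay between 0.104 and 0.869 CPM with a median of 0.306 (2 to 11 counts). Bcl6 tumor 3 was 7.29-fold above the second highest tumor, and all other tumors were near the limit of detection. In Smc3/Bcl6 tumor 4, which led for Ccr3 and Prg2, there were 356 counts of Prg2 but 7 of Epx, a ratio of 50.9, against 2.97 in Bcl6 tumor 3.

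Alox15 (ENSMUSG00000018924.6, chr11:70344152-70352031, minus strand) was highest in the same tumor as Epx. The Bcl6 tumors had 1.06, 2.05 and 93.9 CPM (12, 38 and 993 counts, mean 32.3 ± 53.3 SD). The Smc3/Bcl6 tumors ran from 0.0694 through a median of 2.02 to 26.6 CPM (mean 5.85 ± 10.3 SD), with tumor 4 the highest. Smc3/Bcl6 tumor 6, the third highest for Ccr3, had 13 counts of Alox15. The ratio of Ccr3 to Alox15 counts was therefore 68.8 in that tumor and 0.641 in Bcl6 tumor 3. Il5 (ENSMUSG00000036117.2, chr11:53720794-53725106, plus strand), which encodes the cytokine itself, had 14 counts in all: 8 in Bcl6 tumor 2, 2 in Bcl6 tumor 3, 4 in Smc3/Bcl6 tumor 3 and 0 in the other 6 tumors. Its exons overlap the antisense gene Gm12214, which had a count of 0. Per kilobase of exon, the median level over the 9 tumors was 4.49 CPM for Il5ra, 3.96 for Prg2, 2.30 for Ccr3, 0.836 for Alox15, 0.146 for Epx and 0 for Il5.

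**Figure D1:**
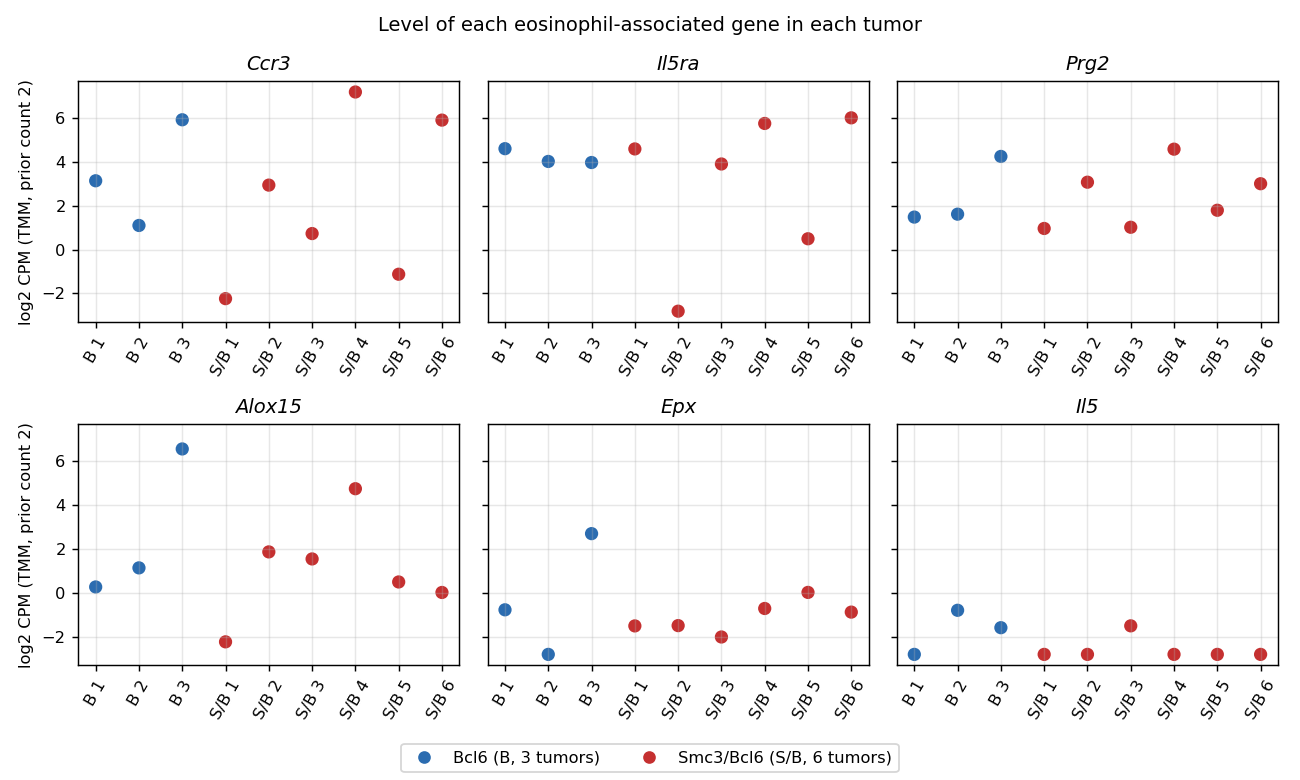
Level of each of the 6 genes (log2 CPM, y axis) in each of the 9 tumors (x axis, with 3 Bcl6 tumors in blue, 6 Smc3/Bcl6 tumors in red and 1 point per tumor). The lowest points of Il5ra, Epx and Il5 are tumors with a count of 0. Ccr3 spans from 0.0694 to 145 CPM with both genotypes mixed, while Epx is high in Bcl6 tumor 3 only among these tumors.

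The rule that chose these genes asks whether Ccr3 rose and fell with the others. Over the 9 tumors, Prg2 followed Ccr3 most closely, with a Spearman rho of 0.8 (exact permutation p = 0.01383, two-sided) and a Pearson r of 0.863 (exact permutation p = 0.003894). Adjusted over all 14058 genes correlated with Ccr3 (Benjamini-Hochberg), these became 0.9639 and 0.9998. Of all genes tested, 99.5% had a lower rho with Ccr3 than Prg2. Without Smc3/Bcl6 tumors 1 and 4, the farthest from the median of Ccr3, the r of Prg2 was 0.764 and its rho 0.571. Within the 7 tumors labelled lymph node, rho was 0.857 (exact permutation p = 0.02381). Leaving out Bcl6 tumor 3, Smc3/Bcl6 tumor 1 or Smc3/Bcl6 tumor 4 each gave a rho of 0.714 with an exact permutation p of 0.05759.

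The other 4 genes went less with Ccr3 in rank, though the differences between correlations were not tested. Alox15 had a rho of 0.55 (exact permutation p = 0.1328) and an r of 0.704 (p = 0.03181), and without the same pair of tumors these were 0.071 and 0.434, so the relation rested on them. Epx had a rho of 0.5 (exact permutation p = 0.1777) and an r of 0.42 (p = 0.2718). Without Smc3/Bcl6 tumor 5 the rho of Epx was 0.857 (exact permutation p = 0.01071), so a single tumor with 11 counts of Epx and 4 of Ccr3 decided this value. Il5ra had a rho of 0.467 (exact permutation p = 0.2125) and an r of 0.312 (p = 0.4259). None of these passed after adjustment over all genes, where each adjusted Spearman p was 0.9639. Il5, with a count of 0 in 6 tumors, was too sparse for a correlation to be read. For scale, 1085 of the 14057 genes tested (7.72%) had a rho of at least 0.5 with Ccr3, and 0 of 14058 (0%) passed an adjusted Spearman p of 0.05, with 307 at an unadjusted p under 0.05.

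Of the 15 pairs among the 6 genes, those without Ccr3 were also uneven. Prg2 and Alox15 had a rho of 0.7 (exact permutation p = 0.04325) and an r of 0.81 (p = 0.007292), which fell to an r of 0.368 without Smc3/Bcl6 tumor 4 and Bcl6 tumor 3. Adjusted over all genes correlated with Prg2, both p-values were 1.0. Prg2 and Epx, whose proteins share the granule, had a rho of 0.617 (exact permutation p = 0.08573). The rho of Il5ra was 0.05 with Prg2, 0.05 with Epx and -0.367 with Alox15. Ccr3, Prg2 and Alox15 shared their 2 highest tumors, Bcl6 tumor 3 and Smc3/Bcl6 tumor 4, whereas Il5ra was highest in Smc3/Bcl6 tumors 6 and 4.

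**Figure D2:**
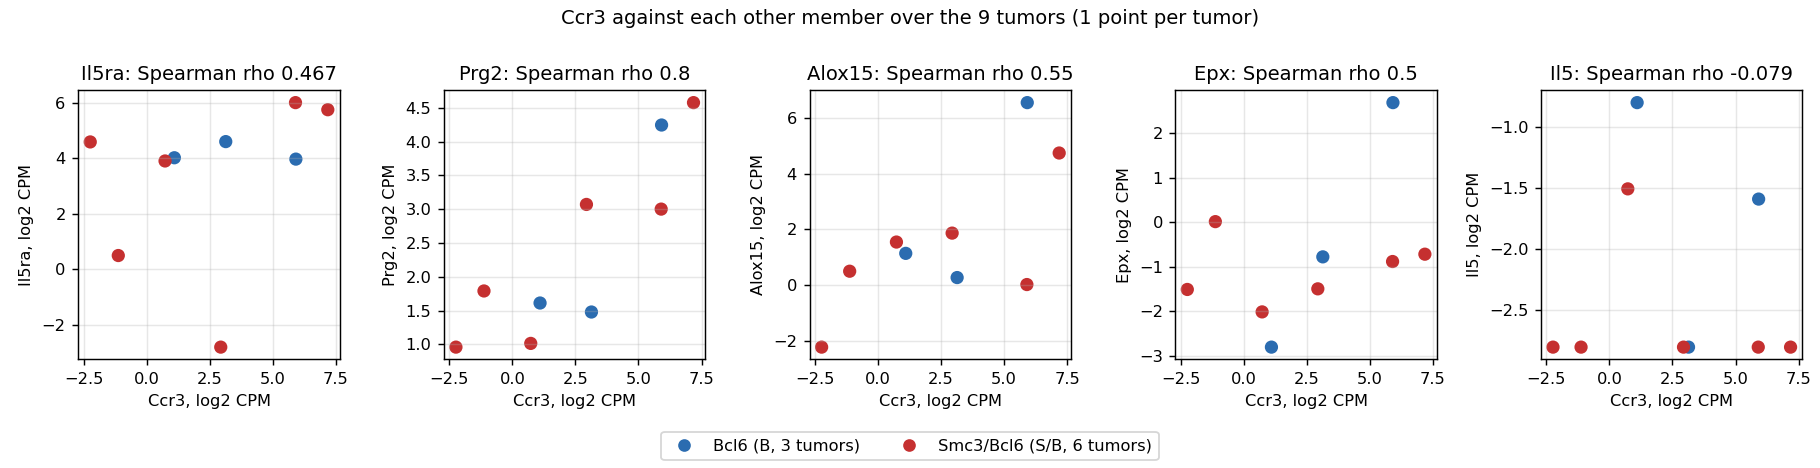
Ccr3 (x axis, log2 CPM) against Il5ra, Prg2, Alox15, Epx and Il5 (y axes, log2 CPM), where each point is 1 of the 9 tumors, blue for Bcl6 and red for Smc3/Bcl6. Prg2 climbs with Ccr3 (Spearman rho 0.8), while the panels of Il5ra and Epx each hold tumors far from any common line and Il5 lies mostly at a count of 0.

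The 5 genes most like Ccr3, by the highest rho among the genes tested and leaving out the 6 genes themselves, were Emr1, Pparg, Slc16a10, Siglece and Aspa. Emr1 (now named Adgre1) encodes F4/80, an adhesion receptor of mouse macrophages that eosinophils carry too. It had 34.3, 27.2 and 114 CPM in the Bcl6 tumors and a lowest of 5.2, a median of 24.3 and a highest of 157 CPM in the Smc3/Bcl6 tumors. The order of the 9 tumors was the same for Emr1 as for Ccr3, a rho of 1.0, for which the exact permutation p of 5.511e-06 is the smallest that ranks of 9 tumors can give (adjusted 0.07748). Its r was 0.983 (exact permutation p = 2.756e-06, the smallest possible, and 0.03874 after adjustment), and Emr1 was the 1 gene whose Pearson correlation with Ccr3 passed 0.05 after adjustment. The r was 0.97 without Smc3/Bcl6 tumors 1 and 4. With CPM of the total counts in place of TMM scaling the rho of Emr1 was 0.967. The levels did not keep a fixed ratio, as there were 0.0133 counts of Ccr3 per count of Emr1 in Smc3/Bcl6 tumor 1 and 0.926 in Smc3/Bcl6 tumor 4.

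Pparg encodes a nuclear receptor of lipid metabolism that alveolar macrophages and fat cells need. It had 3.97, 3.73 and 12.8 CPM in the Bcl6 tumors and 0.624 to 19.2 CPM in the Smc3/Bcl6 tumors, with a rho of 0.983 with Ccr3. Slc16a10, a transporter of aromatic amino acids, had 2.48 to 5.95 CPM in the Bcl6 tumors and 1.32 to 10.8 CPM in the Smc3/Bcl6 tumors, with the same rho of 0.983. Siglece, an inhibitory receptor of myeloid cells that binds sialic acid, reached 29.3 CPM in Bcl6 tumor 3 and 74.3 CPM in Smc3/Bcl6 tumor 4 (rho 0.967). Aspa, which encodes aspartoacylase, was highest in Bcl6 tumor 3 at 10.8 CPM (rho 0.95). It was at 3.26 CPM in Smc3/Bcl6 tumor 4 and at 0 to 0.666 CPM in all others. These low levels are around that of 3 counts, so its rho rests in part on the order of a few reads. Their adjusted Spearman p-values were 0.1743, 0.1743, 0.4649 and 0.8265, so none of the 4 passed. When each tumor was left out in turn, the rho of these 5 genes lay between 0.929 and 1.0. They were picked for the highest rho in these same tumors, so a high value was set in advance and is no check.

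**Figure D3:**
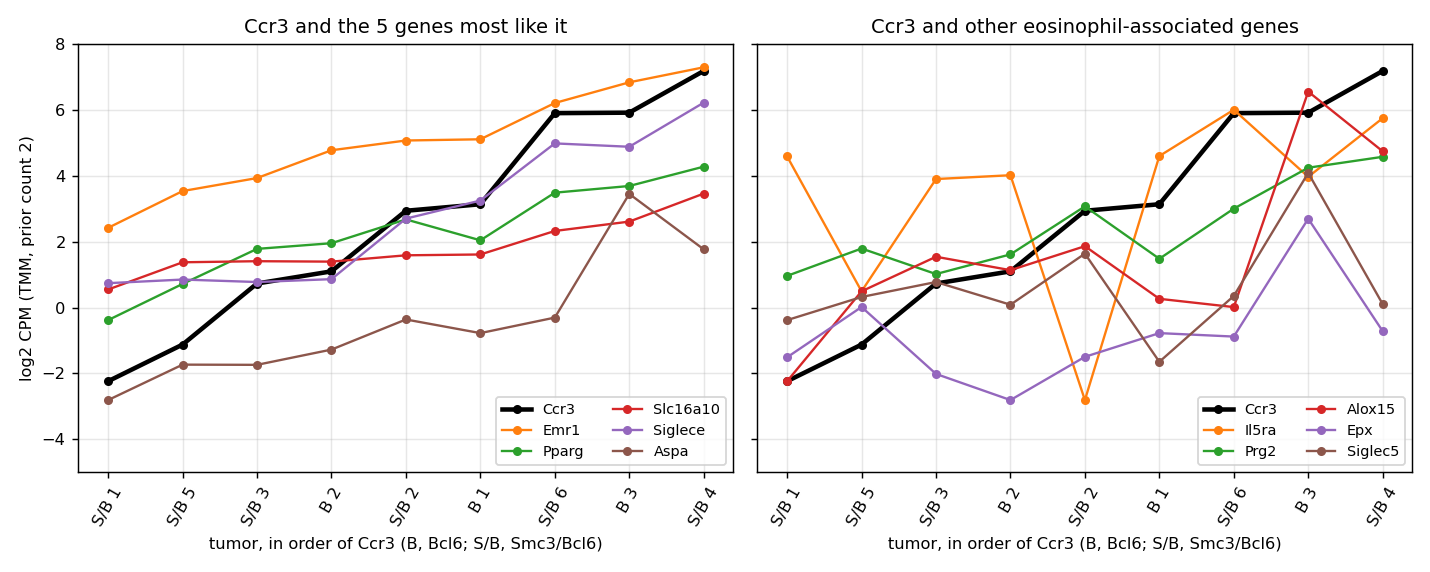
Levels (log2 CPM, y axis) in the 9 tumors ordered from the lowest to the highest Ccr3 (x axis), with Ccr3 in black. Left, the 5 genes most like it by rank, and right, Il5ra, Prg2, Alox15, Epx and Siglec5. The lines on the left rise with Ccr3 nearly throughout, led by Emr1 with a rho of 1.0, and those on the right cross, with Il5ra at a count of 0 in Smc3/Bcl6 tumor 2.

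A list of 22 other genes known from eosinophils was read beside these 6, and 15 of them were among the genes tested. The defining markers were low in most tumors. Siglec5, the name in these files for the gene of Siglec-F, a surface marker of mouse eosinophils and alveolar macrophages, had 0.176, 0.918 and 16.8 CPM in the Bcl6 tumors and 0.624 to 2.96 CPM in the Smc3/Bcl6 tumors. Prg3, a homolog of major basic protein, lay between 0.265 and 2.81 CPM in all 9 tumors. Cebpe, a transcription factor of granule formation, reached 4.82 CPM in Bcl6 tumor 3 and at most 1.27 CPM elsewhere. Ear10 and Ear14, eosinophil ribonucleases, had a count of 0 in all 9 tumors, though the genes of this family are near copies and their reads are uncertain. Bcl6 tumor 3 was thus the 1 tumor in which Epx, Siglec5, Cebpe and Alox15 were all at their highest. Other genes of these lists peaked elsewhere, among them Ccr3, Prg2, Ear2 and Gata1 in Smc3/Bcl6 tumor 4, Il5ra in Smc3/Bcl6 tumor 6 and Prg3 in Bcl6 tumor 2. Neutrophil genes such as Mpo (209 CPM) were also highest in Bcl6 tumor 3, and their part in these levels was not tested. The markers were divided in Smc3/Bcl6 tumors 4 and 6, where Ccr3 stood at 145 and 59.6 CPM. There Prg2 was at 23.7 and 7.86 CPM, Il5ra at 53.6 and 64.0 CPM and Ear2 at 17.9 and 13.3 CPM, while Epx was at 0.466 and 0.4 CPM and Siglec5 at 0.932 and 1.13 CPM. In the 8 tumors other than Bcl6 tumor 3, Epx was at no more than 0.869 CPM and Siglec5 at no more than 2.96 CPM, so these markers by themselves did not bear out the name eosinophil genes there, whereas Prg2 was counted in each.

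Within that list, the rho with Ccr3 had a median of 0.27 over the 15 genes tested, against a median of 0 over all genes, and 6 of the 15 (against 7.72% of all genes) were at or over 0.5. Those most like Ccr3 after Emr1 were Ear2 (rho 0.9), another ribonuclease that macrophages also make, and Gata1 (rho 0.867). Ear2 had 2.12, 0.594 and 6.99 CPM in the Bcl6 tumors and 0.555 to 17.9 CPM in the Smc3/Bcl6 tumors. Gata1 had 0.706, 1.57 and 6.80 CPM in the Bcl6 tumors and 0.316 to 17.6 CPM in the Smc3/Bcl6 tumors. Both were highest in Smc3/Bcl6 tumor 4. Siglec5 had a rho of 0.267 and Prg3 of -0.12. The receptor subunits that Il5ra pairs with or resembles were widely present and did not follow Ccr3, with a rho of -0.2 for Csf2rb, the shared signaling chain (25.8 to 195 CPM), and of -0.25 for Il3ra (5.72 to 14.3 CPM).

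Of the chemokines that bind CCR3, Ccl24 (eotaxin-2), which macrophages make, had the highest rho with it. Ccl24 had 2.56, 0.864 and 2.84 CPM in the Bcl6 tumors and a lowest of 0.237, a median of 6.05 and a highest of 33.0 CPM in the Smc3/Bcl6 tumors, with a rho of 0.867 (exact permutation p = 0.004508, adjusted 0.9639). Smc3/Bcl6 tumors 6 and 4 were highest. Ccl11 (eotaxin-1) had 32 counts over all 9 tumors, and Ccl28 had 1. Ccl5, which T cells make in quantity and which reached 3456 CPM, had a rho of -0.02, and Ccl8 one of 0.03. A list of 12 genes of chromosome 9, most of them beside Ccr3 and some also chemokine receptors, had a median rho of -0.03 over the 11 tested. It ran from -0.68 for Ccr9 to 0.78 for Ltf, a neutrophil granule gene that with Ccrl2 lies far from Ccr3 on the chromosome, and was 0.5 for Fyco1, 0.35 for Ccr1 and 0.07 for Ccr2.

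Markers of other cells also had a high rho with Ccr3. Of 10 erythroid genes (among them hemoglobin genes that are near copies, Alas2, Klf1 and Epor), 10 had a rho of at least 0.5 and 10 were highest in Smc3/Bcl6 tumor 4, and their summed level was 49.6 to 1477 CPM in the Bcl6 tumors and 124 to 13008 CPM in the Smc3/Bcl6 tumors. Of 10 neutrophil genes, 8 had a rho of at least 0.5 and 9 were highest in Bcl6 tumor 3, with sums of 22 to 2167 CPM and 10.7 to 891 CPM. Over all genes tested, 7.72% had a rho of at least 0.5. The share of all genes that were highest in either tumor was not computed, so those counts are a description only. Macrophage genes were split. Of the 12, 5 had a rho of at least 0.5, namely Cd5l (rho 0.883), Cd163 (0.82), Vsig4 (0.73), Csf1r (0.68) and Mrc1 (0.68). Fcgr1 (0.48), Mertk (0.43) and Timd4 (0.37) were lower, C1qb and C1qc were both at 0.23, and C1qa (0.12) and Cd68 (-0.07) were near 0. The 12 genes summed to 348 to 2547 CPM in the Bcl6 tumors and 160 to 3073 CPM in the Smc3/Bcl6 tumors. Cd163 was at 67.4 CPM in Smc3/Bcl6 tumor 4 and 66.8 CPM in Smc3/Bcl6 tumor 6 and at no more than 1.68 CPM in the other 7. Mast cell and basophil genes (9 tested) had a median rho of 0, T-cell genes (9 tested) one of -0.07 and B-cell genes (9 tested) one of 0.15. The sums of the mast cell and basophil list were 15.5 to 174 and 25.9 to 271 CPM, those of the T-cell list 436 to 3196 and 138 to 3319 CPM, and those of the B-cell list 2740 to 9020 and 4953 to 11762 CPM. None of the defining markers of these erythroid, neutrophil and macrophage lists was at 0 in all tumors, and their part in the level of Ccr3 was not tested.

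**Figure D4:**
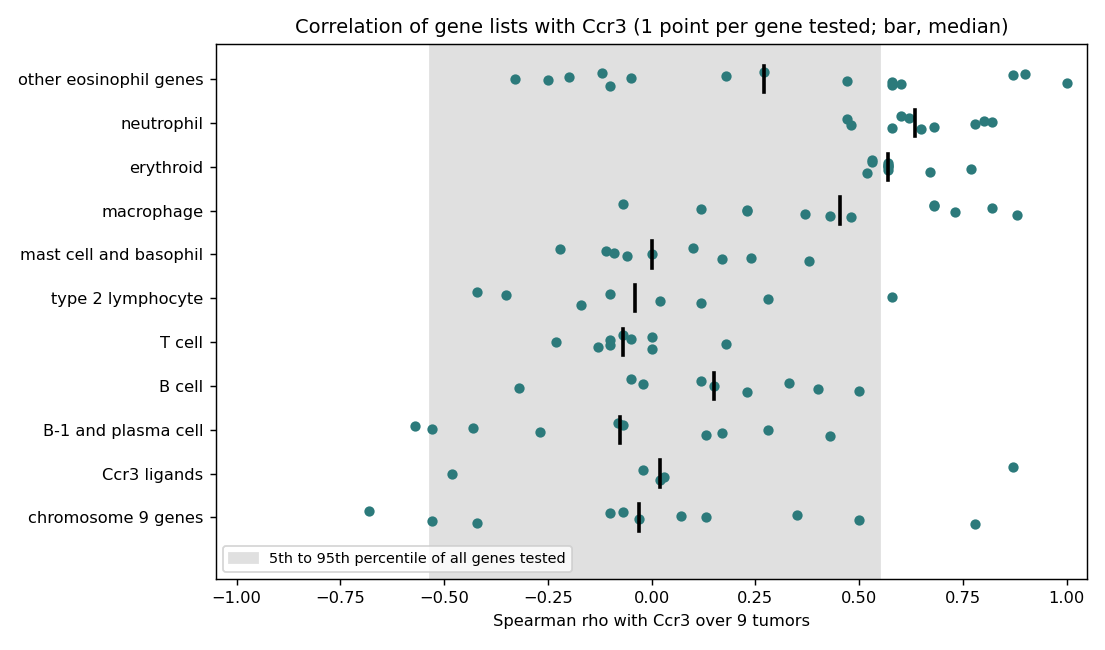
Spearman rho with Ccr3 over the 9 tumors (x axis) for the genes tested of each list (y axis, 1 point per gene, black bar the median), with the 5th to 95th percentile of all genes tested (-0.533 to 0.55) in gray. The erythroid (median 0.57) and neutrophil (median 0.64) lists lie to the right, other eosinophil genes spread from -0.33 to 1.0, and T-cell genes cluster near 0.

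Genes of type 2 lymphocytes, the cells that make interleukin 5, were read beside the 14 counts of Il5. Of 11 such genes, 8 were tested, and their sums were 25.1 to 217 CPM in the Bcl6 tumors and 8.18 to 252 CPM in the Smc3/Bcl6 tumors. The cytokine genes were low, with 6 counts of Il13 and 0 of Il9, while genes that other T cells also express were higher, up to 114 CPM for Il7r, 50.1 CPM for Il2ra and 34.1 CPM for Gata3. Il4 had 0.882 to 7.37 CPM in the Bcl6 tumors and 0.399 to 11.7 CPM in the Smc3/Bcl6 tumors, with a rho of -0.42 with Ccr3. Il1rl1, the receptor of interleukin 33, was highest in Bcl6 tumor 3 at 8.22 CPM and had a count of 0 in Smc3/Bcl6 tumor 1, where Ccr3 was lowest. The type 2 list had a median rho of -0.04 with Ccr3.

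The genotype comparison was known when these genes were proposed, so its values for them are a description. With edgeR's quasi-likelihood test on all 9 tumors, the log2 fold change of Smc3/Bcl6 over Bcl6 was 0.60 (SE 1.82) for Ccr3, 0.50 (SE 1.29) for Il5ra, -0.05 (SE 0.93) for Prg2 and -2.46 (SE 1.53) for Alox15. Of the 4, 0 passed the thresholds of the study (an unadjusted p under 0.1 together with a log2 fold change over 0.56 in size), beside 302 of 14057 genes (2.15%). The count was also 0 of 4 at an unadjusted p under 0.05. With DESeq2, Ccr3, Il5ra and Prg2 did not pass the thresholds. DESeq2 gave no p for Alox15 (log2 fold change -2.50, SE 1.44), so whether it passed there is not known. After Benjamini-Hochberg adjustment 0 of 14057 genes (0%) passed 0.05 with edgeR, with 79 at an unadjusted p under 0.05, and 0 passed with DESeq2, with 209 at an unadjusted p under 0.05. The SE exceeded the size of the fold change for Ccr3, Il5ra and Prg2, but not for Alox15.

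The direction depended on which tumors entered. Blocked on replicate number, a fit of replicates 1 to 3 of each genotype, the log2 fold change was -3.78 (SE 2.06) for Ccr3 and -1.43 (SE 1.47) for Il5ra. In that fit Alox15 (-2.72, SE 1.41) passed the thresholds, beside 299 of 13360 genes (2.24%). This fit leaves out Smc3/Bcl6 tumors 4, 5 and 6, of which tumors 4 and 6 hold 2178 and 894 of the 3949 counts of Ccr3. The tumors it keeps were not fitted without the block, so the block and the left-out tumors cannot be told apart. Without Smc3/Bcl6 tumor 4 alone the value of Ccr3 was -0.86, without Bcl6 tumor 2 it was -0.05, and without Bcl6 tumor 3 it was 2.75. Alox15 turned to 1.89 without Bcl6 tumor 3, which held 71.1% of the summed CPM of that gene, and to -4.37 without Smc3/Bcl6 tumor 4, where it passed the thresholds. Prg2 turned from -0.05 to 1.48 without Bcl6 tumor 3.

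**Figure D5:**
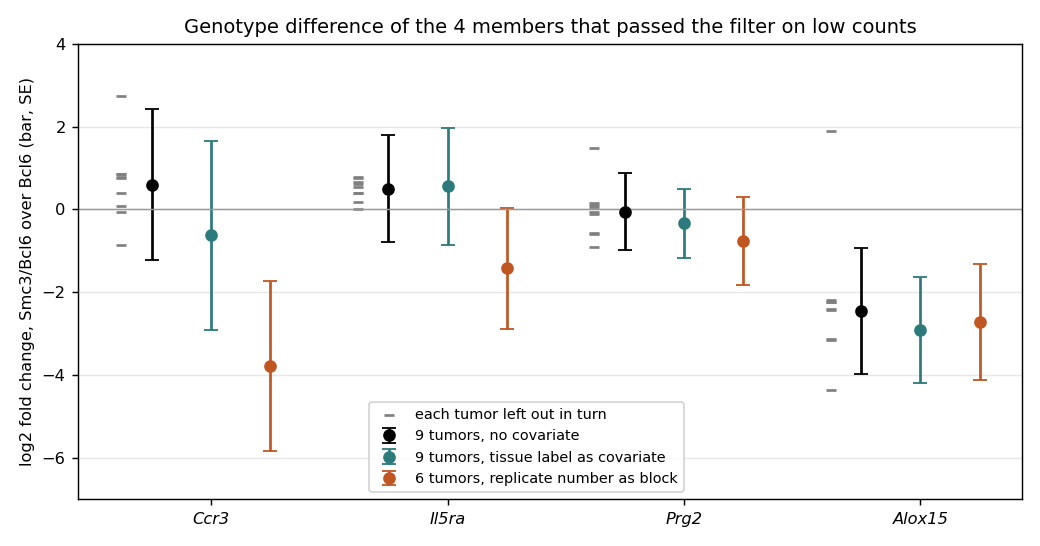
Log2 fold change of Smc3/Bcl6 over Bcl6 (y axis, points with SE bars) for Ccr3, Il5ra, Prg2 and Alox15 (x axis) in the fit of 9 tumors (black), with the tissue label as a covariate (teal) and blocked on replicate number over 6 tumors (orange). Gray dashes are the values when each tumor was left out in turn. Ccr3 moves from 0.60 to -3.78 between the black and the orange fit, and Alox15 is below 0 in each fit except without Bcl6 tumor 3 (1.89).

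In the other 22 eosinophil genes, of which 15 were tested, 0 were higher and 1 was lower in the Smc3/Bcl6 tumors by the same thresholds, with a median log2 fold change of -0.02 against 0.06 over all genes. The 1 gene was Siglec5 (log2 fold change -2.10, SE 1.03), whose level in Bcl6 tumor 3 was 16.8 CPM against at most 0.918 CPM in the other Bcl6 tumors. With the block the value of Siglec5 was 0.03. There 3 of the 14 genes tested passed instead, Il1rl1 (-2.83), Emr1 (-1.88) and Emr4 (-2.70), beside 299 of 13360 genes (2.24%). That fit leaves out Smc3/Bcl6 tumors 4, 5 and 6. In them Emr1 was at 157, 11.5 and 73.8 CPM and Emr4 at 166, 70.7 and 58.2 CPM. In the fit of all 9 tumors, 3 of 10 neutrophil genes (Elane, Mpo and Prtn3) were lower by the thresholds. Of 10 erythroid genes, 4 were higher (Klf1 and Slc4a1 among them). Of all 14057 genes, 122 were lower and 180 higher. Slc4a1 was at 411 and 275 CPM in Smc3/Bcl6 tumors 4 and 6 and at most 9.07 CPM elsewhere. With the block, 0 of the 8 neutrophil and 0 of the 9 erythroid genes tested in that fit passed, and Elane was at -0.32 and Mpo at -0.50, while Slc4a1 and Ermap turned from 4.69 and 3.08 to -0.37 and -1.38. Elane, a protease of neutrophil precursors, was at 75.2 CPM in Bcl6 tumor 3 and at most 4.27 CPM in the other 8 tumors. The part of these cells in the values of Alox15, Prg2 and Ccr3 was not tested.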

How the data were processed

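RNA of 9 mouse lymphomas (3 Bcl6, 6 Smc3/Bcl6) was sequenced by the authors as Illumina libraries, aligned to mm10 with STAR and counted per Gencode gene with featureCounts. The deposited values are raw counts, 1 column per tumor; DESeq2 1.28.1 and R 4.0.2 are named in the submitters' processing notes. The strand setting of the counting is not given in the sources used here. Groups and replicate numbers came from the sample labels. Nothing in them shows whether replicates were separate litters, so p-values measure the spread between these tumors. The 6 genes and all gene lists were chosen with earlier results of these data known.

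Counts were fitted with edgeR 4.0.16 (filterByExpr, TMM, glmQLFit and glmQLFTest; R 4.3.3), and levels were expressed as log2 CPM with a prior count of 2. Correlations were tested by exact permutation of 9 tumors (362880 orders, two-sided; scipy 1.17.1). Alternatives were DESeq2 1.42.0, its size factors, no filter, a prior count of 0.5, CPM of total counts, the tissue label, a replicate block and leaving out each tumor. Deviations of same-numbered tumors from their group means correlated at 0.443, 0.113 and 0.155 for replicates 1, 2 and 3. Tumors of different number were not compared in this way. The tissue label mesenteric lymph node was carried by replicate 1 of each genotype and by no other tumor. The labels name nothing else that tumors of the same number share, so pairing was not established. The replicate block is therefore given only as an alternative. The smallest chi-square per gene between libraries was 50.4, so none was a repeat of another. Between Smc3/Bcl6 tumor 2 and each other library this value was 303 to 513. It was at most 224 between any others, so Smc3/Bcl6 tumor 2 stood apart. Named genes were the 6, those of the lists at a median of 1 CPM or more or on which a value turned, and the 5 highest in rho with Ccr3. Positions were taken from the GENCODE M21 annotation (GRCm38), in which 97.9% of gene identifiers were found. The scripts were tested on simulated data. Values of some single genes of the lists are not reported here.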

Additional observations from a re-analysis of the deposited data

Results flagged for a closer look

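Il5 was the 1 of the 6 genes with a Smc3/Bcl6 tumor far from the other 5. Smc3/Bcl6 tumor 3 had 4 counts of Il5 and the others had 0, so the gap to the nearest tumor divided by the range of log2 CPM was 1.0, above the 95% critical value of Dixon's test for 6 samples. With the other 5 tied at a count of 0, any count above 0 in the sixth gives this ratio, so it says nothing beyond the 4 counts themselves.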

How the results depend on the processing

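No member count rose above 2 in any setting, and no gene passed an adjusted p of 0.05 in any of them. Genes past the thresholds numbered 180 higher and 122 lower (59.6% higher). They were 342 and 101 (77.2%) with the DESeq2 test, 576 and 812 (41.5%) without the filter, 45 and 254 (15.1%) with the replicate block and 130 and 192 (40.4%) with the tissue label as a covariate. Leaving out each tumor gave 84 to 339 higher and 61 to 321 lower. Of the 6 genes, 4 were tested and 0 passed, beside 302 of 14057 genes (2.15%). Without the filter 2 of 6 passed, Alox15 and Epx, which the main fit did not test. There 576 genes were higher and 812 lower of 26445 tested. Alox15 was the 1 of 4 that passed with the block, beside 299 of 13360 genes (2.24%). It was also the 1 of 4 with the tissue label, where 130 genes were higher and 192 lower of 14057. When each tumor was left out, 0 to 2 passed of the 4 or 5 tested, with 13762 to 14637 genes tested in all. The log2 fold change of Ccr3 was 0.60, but -3.78 with the block, -0.63 with the tissue label and -0.86 to 2.75 over left-out tumors (below 0 without Bcl6 tumor 2, -0.05, or Smc3/Bcl6 tumor 4). Il5ra was at -1.43 with the block and 0.02 to 0.78 over left-out tumors. Over left-out tumors Prg2 ran from -0.91 to 1.48 (above 0 without Bcl6 tumor 3, 1.48, and Smc3/Bcl6 tumors 1, 0.15, 3, 0.06, and 5, 0.10) and Alox15 from -4.37 to 1.89. The block changed no other call of the 6 genes. The fit with the block also leaves out Smc3/Bcl6 tumors 4, 5 and 6, so its values do not show the effect of the block alone. The cause was not tested.

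Over left-out tumors the rho with Ccr3 was 0.714 to 0.905 for Prg2, 0.333 to 0.857 for Epx, 0.357 to 0.714 for Alox15, 0.286 to 0.643 for Il5ra and -0.273 to 0.062 for Il5. The correlations of the 5 genes most like Ccr3, and of Ear2, Gata1, Cd5l, Ccl24 and Siglec5, kept their direction and side of an unadjusted p of 0.05 in all 13 alternatives, which were chosen for these genes after seeing the data. The 5 genes most like Ccr3 were picked by their rho in these same tumors, so for them this is no check. Ear2, Gata1, Cd5l and Ccl24 stood out within their lists by a high rho in the same tumors. It is therefore no check for them either. DESeq2 gave no p for Alox15, so it has no call there. Counts of 0 to 11 outside Bcl6 tumor 3 limit what can be said of Epx, and 14 counts limit Il5.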

Other observations

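A list of 6 genes of splenic red pulp macrophages (Spic, Vcam1, Treml4, Slc40a1, Hmox1 and Axl) was read after the values above were seen, so it has no test. All 6 were highest in Smc3/Bcl6 tumor 4, though the share of all genes highest there was not computed. Their summed level was 361 to 623 CPM in the Bcl6 tumors and 154 to 3823 CPM in the Smc3/Bcl6 tumors. Treml4, a receptor of spleen myeloid cells, had 1.94, 0.432 and 3.21 CPM in the Bcl6 tumors and 0.139 to 8.45 CPM in the Smc3/Bcl6 tumors, with a Spearman rho of 0.9 with Ccr3 over the 9 tumors. Spic, a transcription factor of iron-recycling macrophages, had 18.5 to 30.3 CPM in the Bcl6 tumors and 7.28 to 136 CPM in the Smc3/Bcl6 tumors, with a rho of 0.67. The median rho with Ccr3 of the list was 0.56.

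A list of 7 genes of peritoneal macrophages, cells in which mice also express Alox15, summed to 84.8 to 1902 CPM in the Bcl6 tumors and 48.3 to 1071 CPM in the Smc3/Bcl6 tumors. Most of the sum was Saa3, an acute phase gene, at 1790 of the 1902 CPM in Bcl6 tumor 3. Of the 7 genes, 4 were highest in Bcl6 tumor 3, the tumor with the highest Alox15, but the share of all genes highest there was not computed. Of the 10 genes of B-1 and plasma cells, cell types that also express Il5ra, 10 were tested, and they summed to 1443 to 1926 CPM in the Bcl6 tumors and 935 to 3912 CPM in the Smc3/Bcl6 tumors, with Igj, the joining chain of secreted antibody, alone at 2924 of the 3912 CPM in Smc3/Bcl6 tumor 1. The others of that list differed in their highest tumor, such as Smc3/Bcl6 tumor 3 for Sdc1 and Smc3/Bcl6 tumor 2 for Xbp1. The genes next to Il5 (Il4, Il13, Rad50, Kif3a and Irf1) summed to 667 to 922 CPM and 357 to 922 CPM.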
